A study of Mus musculus with 4 samples.

Results

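Ribosome biogenesis and RNA exosome genes were examined in mouse mammary tissue on arrays from 2 mice labelled knockout (KO) and 2 mice labelled wild type (WT) for STAT5. The set held every gene with a single symbol on the platform that begins with Exosc, Rrp, Utp, Polr1, or Nop or Nol followed by a digit, together with Fbl, Dkc1, Ncl, Npm1, Bop1, Pes1 and Wdr12. This gave 59 genes of the 18193 named on the array, carried by 130 of its 45037 probe sets. Where a gene had several probe sets, the brightest one stood for it, judged by mean log2 signal over the 4 arrays, so signal level chose the probe set. The difference between genotypes was not part of the rule, but the set was put forward with differences in these data already known, and counts over it are therefore a description. The KO mice are labelled only as STAT5 KO, and the title of the series names STAT5A. The deleted gene or exons, any Cre driver, the strain and the age are not given in the sources used here, and the labels name no treatment. Tissue of both genotypes was collected at 6 days, counted from an event that the design text does not name. Whole mammary tissue was used, so fewer cells of a type and less RNA per cell cannot be told apart in any result below.

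Ribosomes are built in the nucleolus. RNA polymerase I copies the ribosomal DNA into a long precursor, small nucleolar ribonucleoproteins (snoRNPs) mark chosen bases for methylation or pseudouridylation, and large assemblies of processing factors cut the precursor and fold it into the small and the large subunit. The RNA exosome, a barrel of subunits with attached nucleases, trims the ends of ribosomal RNA and degrades discarded spacers and many other nuclear RNAs. Growing and dividing cells make most new ribosomes, and the mammary epithelium multiplies before it turns to milk synthesis.

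The authors' values are MAS5 signals, an Affymetrix measure of probe set brightness on a linear scale, and each array was scaled to a trimmed mean of 500. The number of arrays limits the precision. Stat5a gave signals of 1836 and 861 on the KO arrays, against 2307 and 2061 on the WT arrays, and Stat5b gave 1069 and 712 on the KO arrays, against 1522 and 1506 on the WT arrays. For all 4 probe sets of the 2 genes both KO signals lay below both WT signals, and 0 of 4 passed the test (limma adjusted p = 0.246 for Stat5a and 0.102 for Stat5b). The log2 difference of Stat5a was -1.33 without KO replicate 1, where it passed, and -0.25 without KO replicate 2, where it did not. That of Stat5b was -1.07 without KO replicate 1, where it passed, and -0.50 without KO replicate 2, where it did not. Whether these probe sets lie in the deleted part is not given in the sources used here, so they do not check the genotype. The luminal keratin genes Krt8 (4378 and 7431 on the KO arrays, 5248 and 6253 on the WT arrays) and Krt18 (6354 and 9118 on the KO arrays, 5823 and 6523 on the WT arrays) were bright on all arrays, as the tissue label implies. They do not stand for all 24 general epithelial markers examined, whose log2 differences ran from -1.78 to 1.02 with a median of -0.40.

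Most members had slightly lower signals in KO than in WT glands, and none passed the test by itself. Of the 59 genes, 57 reached the limit on mean log2 signal set for testing (7.15, a signal of 126). Exosc6 and Nol4 lay below it at a mean of 4.66 and 4.70, and the dimmest genes inside it were Nol10 at 7.35 and Utp14b at 7.41. The limma test passed 0 of 57 members at an adjusted p of 0.05 in either direction, against 2.57% of all 11360 tested genes (1.36% lower and 1.21% higher in KO). The smallest adjusted p among members was 0.0639. At an unadjusted p of 0.05, 19 members were lower and 0 higher, against 10.8% of all tested genes lower and 10.4% higher. The 19 became 5 when WT replicate 2 was left out (5.99% of all tested genes), 9 when KO replicate 1 was (9.39%), 11 after centring on array medians (7.69%) and 0 after epithelial centring (2.01%). Both KO arrays lay below both WT arrays for 41 of 57 members, which is 71.9%, against 27.5% of all tested genes. Both KO arrays lay above both WT arrays for 0 tested members, against 26.2% of all tested genes. The arrays overlapped for the other 16. After centring on array medians 32 of 57 members were lower on both KO arrays (19.4% of all tested genes), and after epithelial centring 5 were (5.55%). With one array left out in turn, which asks fewer arrays to separate, 44 to 53 of 57 were lower, against 37.8% to 42.0% of all tested genes. In the values as deposited, the log2 difference was below 0 for 54 members (94.7%), against 51.5% of all tested genes, and after epithelial centring it was below 0 for 26 of 57.

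The shift was small in size. The median log2 difference of the tested members, KO minus WT on the log2(signal + 16) scale, was -0.30, against -0.01 for all tested genes. When each array was centred on its median, the members' median was -0.22 and that of all tested genes 0.07. The members' median turned to 0.035 when each array was centred on general epithelial markers, a scaling that moved the median of all tested genes to 0.33. That scaling depends on the array. Against the WT mean, the markers had a median of -0.64 on KO replicate 1 and -0.06 on KO replicate 2. The members had -0.40 and -0.25, above the markers on KO replicate 1 and below them on KO replicate 2. Single markers ranged from -1.78 to 1.02. Relative to the median of all tested genes, the members lay at -0.29, a value that centring cannot change because it moves every gene on an array by the same amount. Differences ran from -0.91 to 0.05, and 0 of 57 members reached a difference of 2-fold. The median SE of a member's difference was 0.17.

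**Figure D1:**
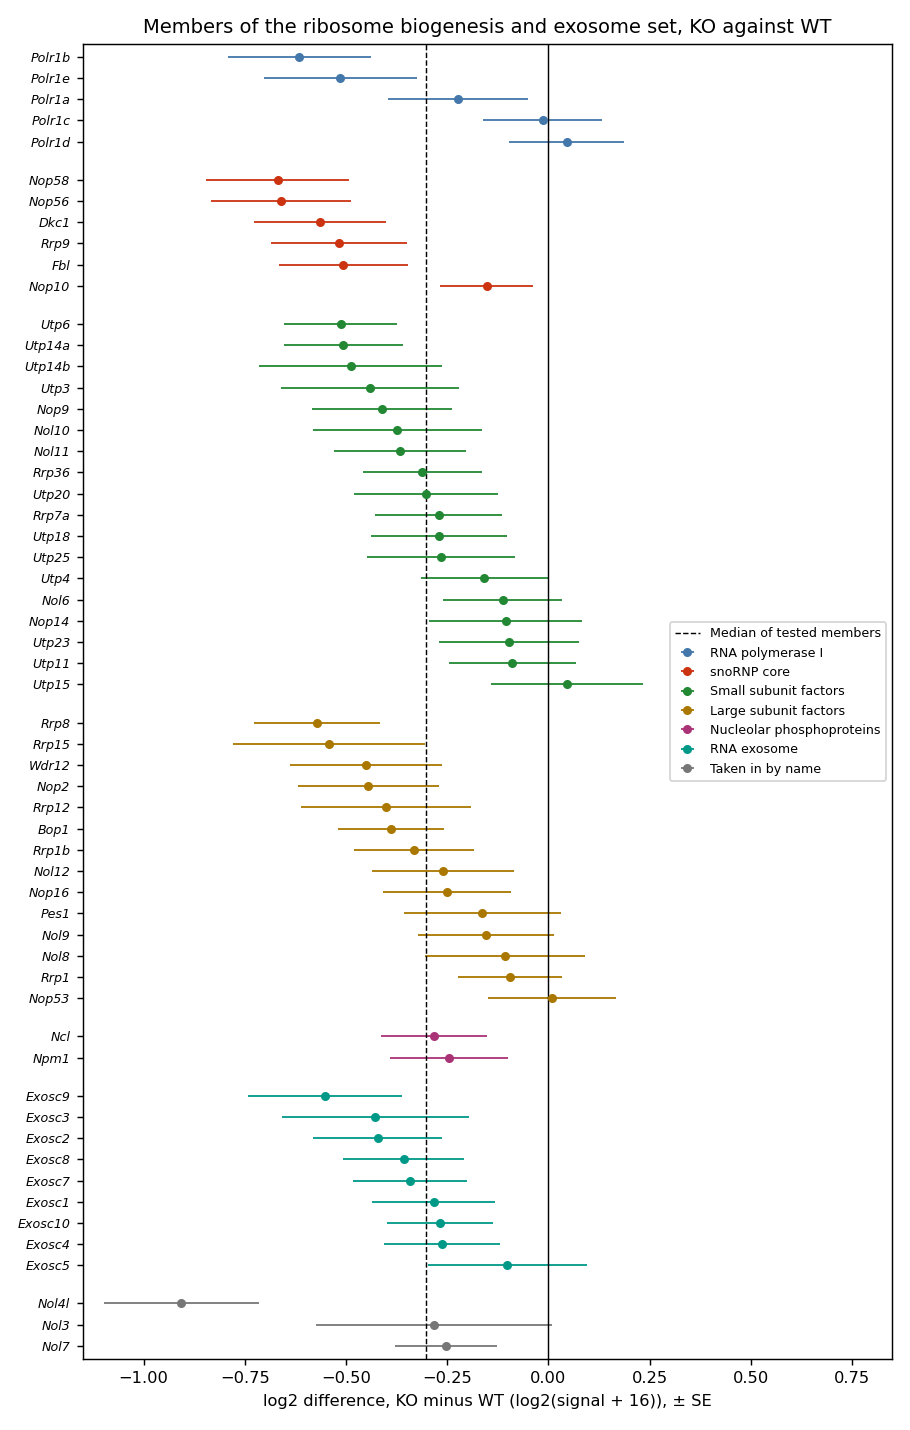
Each point is the log2 difference of one tested member, KO minus WT on the log2(signal + 16) scale, with its SE from limma (2 arrays per genotype), grouped by role, and the dashed line is the median of the 57 tested members at -0.30 (0.035 after centring on epithelial markers). The snoRNP core genes except Nop10, and Nol4l, lie left of that line, whereas Polr1c, Polr1d, Utp15 and Nop53 lie close to 0.

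The 4 arrays were ordered in the same way for much of the set. The median member signal was 628 on KO replicate 1, 736 on KO replicate 2, 828 on WT replicate 1 and 893 on WT replicate 2. KO replicate 1 gave the lowest signal for 45 of 57 members and WT replicate 2 the highest for 35 of 57. The shares of all tested genes with these orders were not counted, so the orders are not shown to be particular to the set. The median signal over all probe sets was also lower on the KO arrays, at 121 and 124, against 131 and 130 on the WT arrays. Against the WT mean, the members' median log2 difference was -0.40 for KO replicate 1 and -0.25 for KO replicate 2. The KO arrays differed from each other by a median of -0.18 (KO replicate 1 minus KO replicate 2) and the WT arrays by -0.08 (WT replicate 1 minus WT replicate 2), so the closest KO and WT pair, KO replicate 2 and WT replicate 1, differed by -0.19, about as much as the KO arrays did from each other. The shift was present in dim and bright members. It was -0.41 for 12 members among the dimmest tested genes, -0.31 for 33 of middle brightness and -0.25 for 12 among the brightest (3 classes of equal size over all tested genes), where the medians of all tested genes were -0.04, -0.02 and 0.02.

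The core proteins of the snoRNPs had the lowest median of the role groups over all 4 arrays, but the 3 tested genes taken in by name were lower without WT replicate 2 (-0.49, against -0.47) and without KO replicate 1 (-0.67, against -0.43). For all 6 snoRNP core genes both KO signals lay below both WT signals, against 27.5% of all tested genes. The median log2 difference of the 6 was -0.54 (-0.20 after centring on epithelial markers). The test passed 0 of 6, against 2.57% of all tested genes. Nop58, a core protein of the box C/D snoRNPs that methylate ribosomal RNA, gave signals of 654 and 739 on the KO arrays, against 979 and 1269 on the WT arrays. For Nop58 the log2 difference came to -0.67 ± 0.18 (SE, n = 2 each; limma adjusted p = 0.104). The partner protein Nop56 gave 835 and 1100 on the KO arrays, against 1459 and 1595 on the WT arrays. KO and WT signals did not overlap for either gene. The log2 difference of Nop56 was -0.66 (SE 0.17, limma adjusted p = 0.102), and it passed without KO replicate 2 (-0.86, adjusted p = 0.0369).

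Fbl encodes fibrillarin, the methyltransferase of the same particles. Its signals were 1612 and 2076 on the KO arrays, against 2525 and 2690 on the WT arrays (log2 difference -0.51, limma adjusted p = 0.150). Rrp9, which binds the snoRNA needed for the first cuts of the precursor, stood at 407 and 491 on the KO arrays, against 673 and 621 on the WT arrays (-0.52, adjusted p = 0.159). Dkc1 encodes dyskerin, the pseudouridine synthase of the box H/ACA snoRNPs. It gave 1481 and 1560 on the KO arrays, against 1979 and 2572 on the WT arrays (-0.57, adjusted p = 0.124). Its partner Nop10, the brightest gene of the group, differed least, with 5394 and 5264 on the KO arrays and 5729 and 6130 on the WT arrays (-0.15, adjusted p = 0.526). The other partners of dyskerin carry names outside the rule. Gar1 stood at 767 and 1174 on the KO arrays, against 1412 and 1465 on the WT arrays (-0.59, adjusted p = 0.193). Nhp2 stood at 1614 and 2170 on the KO arrays, against 2489 and 2602 on the WT arrays (-0.44, adjusted p = 0.221). Neither overlapped between genotypes and neither passed.

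**Figure D2:**
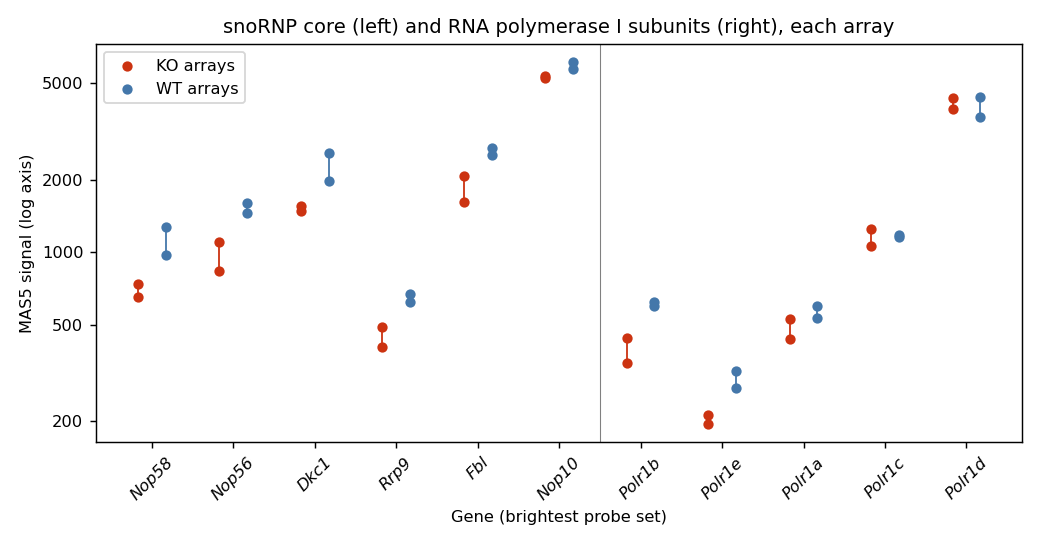
MAS5 signal (log axis) of the 6 snoRNP core genes and the 5 RNA polymerase I genes on each of the 2 KO and 2 WT arrays, with a line joining the arrays of a genotype. KO and WT signals do not overlap for the 6 snoRNP genes or for Polr1b, Polr1e and Polr1a, and they overlap for Polr1c and Polr1d.

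The subunits of RNA polymerase I differed among themselves. Polr1b, the second-largest subunit and part of the catalytic core, had 443 and 349 on the KO arrays, against 599 and 623 on the WT arrays. The Polr1b log2 difference came to -0.62 ± 0.18 (SE, n = 2 each; limma adjusted p = 0.123). Polr1e, a subunit specific to RNA polymerase I, had 195 and 212 on the KO arrays, against 274 and 322 on the WT arrays (-0.51, adjusted p = 0.203). Its probe set is of a type whose probes may also match other transcripts. The other tested Polr1e probe set, not of that type, gave 105 and 181 on the KO arrays, against 174 and 195 on the WT arrays. There the genotypes overlapped (-0.38, limma adjusted p = 0.511). Polr1a, the largest subunit, had 437 and 532 on the KO arrays, against 598 and 535 on the WT arrays (-0.22, adjusted p = 0.534), and the genotypes were separated there by a few signal units.

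Polr1c and Polr1d, which are shared with RNA polymerase III, did not follow the other 3 subunits. Polr1c had 1063 and 1253 on the KO arrays and 1180 and 1153 on the WT arrays (-0.01, limma adjusted p = 0.971). Polr1d had 3910 and 4339 on the KO arrays and 4377 and 3642 on the WT arrays (0.04, adjusted p = 0.896). Their KO and WT values overlapped, and both probe sets are of types that can match other transcripts. Tested probe sets of these genes that are not of such types overlapped too (-0.15 for Polr1c, 0.10 and -0.06 for Polr1d). The difference between the shared and the specific subunits was not tested. With all 5 genes the median was -0.22 (0.11 after centring on epithelial markers), and 0 of 5 passed, against 2.57% of all tested genes.

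Factors of the small subunit made up the largest role group. Of 18 tested, 11 had both KO signals below both WT signals (61.1%, against 27.5% of all tested genes) and 7 overlapped. The test passed 0 of 18, against 2.57% of all tested genes. The median log2 difference of the group was -0.29 (0.05 after centring on epithelial markers). Utp6, a subunit of the small subunit processome that assembles on the nascent precursor, gave 761 and 739 on the KO arrays, against 1046 and 1110 on the WT arrays. For Utp6 the log2 difference came to -0.51 ± 0.14 (SE, n = 2 each; limma adjusted p = 0.109). Utp14a, which in yeast works with the helicase that takes the processome apart, gave 537 and 507 on the KO arrays, against 744 and 751 on the WT arrays (-0.51, adjusted p = 0.125). In both genes the arrays of a genotype lay close together. Utp14b, a retrocopy of Utp14a, was dim, with 131 and 125 on the KO arrays and 160 and 215 on the WT arrays (-0.49, adjusted p = 0.295), and whether the 2 probe sets tell the copies apart was not tested.

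At the other end of the group, Utp15, a processome subunit, gave 474 and 640 on the KO arrays and 536 and 532 on the WT arrays (0.05, limma adjusted p = 0.923). Utp4, whose human form is mutated in an inherited childhood cirrhosis, was the brightest gene of the group, with 1097 and 1369 on the KO arrays and 1331 and 1409 on the WT arrays (-0.16, adjusted p = 0.637). Nol11, a vertebrate processome subunit, gave 728 and 698 on the KO arrays, against 830 and 1029 on the WT arrays (-0.37, adjusted p = 0.274). On the brightest probe sets, this group thus ranged from a log2 difference of -0.51 to 0.05, with a median SE of 0.17. The upper end depends on the probe set, because the other tested probe set of Utp15 gave -0.47.

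Factors of the large subunit showed a similar median of -0.30 (0.04 after centring on epithelial markers). On both KO arrays 9 of 14 were lower (64.3%, against 27.5% of all tested genes), and 5 overlapped. The test passed 0 of 14, against 2.57% of all tested genes. Rrp8, a methyltransferase of large subunit RNA, had 517 and 606 on the KO arrays, against 828 and 851 on the WT arrays. The Rrp8 log2 difference came to -0.57 ± 0.16 (SE, n = 2 each; limma adjusted p = 0.109). Pes1, Bop1 and Wdr12 encode the 3 proteins of the PeBoW complex, which is needed to mature the large subunit RNAs. Bop1 had 1152 and 1178 on the KO arrays, against 1497 and 1566 on the WT arrays (-0.39, adjusted p = 0.173). Wdr12 had 409 and 519 on the KO arrays, against 577 and 700 on the WT arrays (-0.45, adjusted p = 0.254). Pes1 had 701 and 981 on the KO arrays, against 880 and 984 on the WT arrays (-0.16, adjusted p = 0.697), and it was the one gene of the complex whose arrays overlapped.

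Nop2, a cytosine methyltransferase of large subunit RNA once described as a proliferation antigen, had 474 and 532 on the KO arrays, against 618 and 768 on the WT arrays (-0.44, limma adjusted p = 0.226). Nop53, the brightest gene of this group, had 4418 and 5695 on the KO arrays and 5300 and 4686 on the WT arrays (0.01, adjusted p = 0.982). Ncl and Npm1 encode nucleolin and nucleophosmin, abundant nucleolar proteins with roles in transcription, folding and export of ribosomal RNA. Ncl had 7327 and 7844 on the KO arrays, against 8459 and 10074 on the WT arrays (-0.28, adjusted p = 0.294). Npm1 had 6432 and 8042 on the KO arrays, against 8064 and 9022 on the WT arrays (-0.25, adjusted p = 0.410), so that KO replicate 2 and WT replicate 1 were nearly equal. On these brightest probe sets both log2 differences turned positive after centring on epithelial markers, to 0.05 for Ncl and 0.09 for Npm1. Other tested probe sets of Ncl gave -0.48, -0.54 and -0.24 in the values as deposited, and their centred values are not given here.

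The subunits of the RNA exosome were nearly uniform in direction in the values as deposited. All 9 tested had a negative log2 difference (against 51.5% of all tested genes). Of these subunits 8 were lower on both KO arrays (88.9%, against 27.5% of all tested genes) and 0 passed (against 2.57%). Their median was -0.34, and -0.0038 after centring on epithelial markers, where 5 of 9 remained below 0. Exosc9, one of the ring subunits that hold the barrel together, gave 442 and 607 on the KO arrays, against 752 and 782 on the WT arrays. For Exosc9 the log2 difference came to -0.55 ± 0.19 (SE, n = 2 each; limma adjusted p = 0.178). Exosc3 and Exosc2 encode cap subunits at the entry to the barrel. Exosc2 gave 643 and 676 on the KO arrays, against 808 and 977 on the WT arrays (-0.42, adjusted p = 0.215). Exosc3 gave 224 and 321 on the KO arrays, against 414 and 324 on the WT arrays (-0.43, adjusted p = 0.365). For Exosc3 a gap of a few signal units separated KO replicate 2 from WT replicate 2, whereas the Exosc2 arrays stood well apart.

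Among the other ring subunits, Exosc8 gave 965 and 1081 on the KO arrays, against 1226 and 1405 on the WT arrays (-0.36, limma adjusted p = 0.253). Exosc7 gave 980 and 1079 on the KO arrays, against 1353 and 1263 on the WT arrays (-0.34, adjusted p = 0.245). Exosc4 gave 973 and 1122 on the KO arrays, against 1271 and 1243 on the WT arrays (-0.26, adjusted p = 0.370). On the log2 scale the gap between genotypes was wider than the spread within each for Exosc7, but not for Exosc8 or Exosc4. Exosc5, also of the ring, was the exception, with 1010 and 1457 on the KO arrays and 1372 and 1237 on the WT arrays (-0.10, adjusted p = 0.826). Without KO replicate 1 its difference was 0.16. Exosc1, the remaining cap subunit, gave 700 and 813 on the KO arrays, against 951 and 893 on the WT arrays (-0.28, adjusted p = 0.361). Exosc10, the nuclear exonuclease attached to the barrel, gave 1365 and 1455 on the KO arrays, against 1663 and 1739 on the WT arrays (-0.27, adjusted p = 0.320). Exosc6 was dim on all arrays, with 12.6 and 8.80 on the KO arrays and 8.43 and 7.61 on the WT arrays, and was not tested.

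The member with the lowest difference entered by its name alone. Nol4l, a relative of the neuronal gene Nol4, gave 285 and 345 on the KO arrays, against 537 and 675 on the WT arrays. The Nol4l log2 difference came to -0.91 ± 0.19 (SE, n = 2 each; limma adjusted p = 0.0639), and it passed without KO replicate 2 (-1.04, adjusted p = 0.0413). Its second tested probe set gave -0.98 (adjusted p = 0.0801). Nol3, an inhibitor of apoptosis, varied as much within as between genotypes, with 377 and 213 on the KO arrays and 406 and 299 on the WT arrays (-0.28, adjusted p = 0.649). Nol7, a nucleolar protein, gave 1593 and 1641 on the KO arrays, against 1929 and 1929 on the WT arrays (-0.25, adjusted p = 0.330). Nol4 itself was dim, with 9.76 and 29.3 on the KO arrays and 3.05 and 4.38 on the WT arrays. Without these 4 genes the median of the other 54 tested members was -0.31 in the values as deposited. Of the 54, 39 were lower on both KO arrays (72.2%, against 27.5% of all tested genes).

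Other probe sets of the same genes were also mostly lower in KO, but a smaller share of them was separated by genotype. Beside the brightest one, 27 of the members had other tested probe sets, 43 in all. Of these 37 had a negative log2 difference, 23 had both KO signals below both WT signals, 2 were higher on both and 0 passed the limma test. The shares of all tested genes were 51.5%, 27.5%, 26.2% and 2.57%, in that order. Those shares rest on the brightest probe set of each gene, whereas the 43 are dimmer probe sets and some share a gene, so the units differ. The median of the 43 probe sets was -0.29 in the values as deposited. An opposite sign to the brightest probe set was found for 6 of them, in Exosc10, Exosc8, Nol7, Nop53, Polr1d and Utp15. The second probe set of Utp15 gave 257 and 380 on the KO arrays, against 400 and 486 on the WT arrays (-0.47), where the brightest gave 0.05. A probe set of Exosc10 gave 275 and 316 on the KO arrays, against 246 and 223 on the WT arrays (0.31), where the other 3 gave -0.17 to -0.27. Nol9, a polynucleotide kinase of precursor processing, varied most in size. Its brightest probe set gave -0.15, and the next ones, at 253 and 365 against 503 and 553 and at 144 and 263 against 461 and 430 (KO arrays against WT arrays), gave -0.76 and -1.13 (limma adjusted p = 0.113 and 0.0895). Nol9 was chosen here after its values were seen. The 20 members with 1 probe set have no such check.

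**Figure D3:**
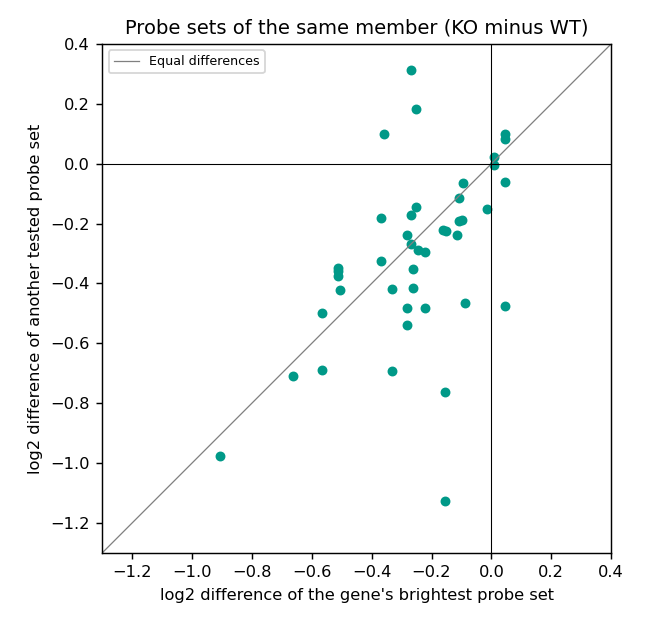
Each point is one of the 43 other tested probe sets of the members, with its log2 difference (KO minus WT, log2(signal + 16)) on the vertical axis against that of the brightest probe set of the same gene on the horizontal axis. In the values as deposited 37 points lie below 0 on the vertical axis, and 6 differ in sign from the brightest probe set.

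Promoter windows of the members were searched for CACGTG, the E-box that MYC and related factors bind, because genes of this set are known targets of MYC. The windows are those of RefSeq on GRCm38.p6, with 250 bases before and 50 bases after a transcription start. A window was found for 46 of the 59 members, and 10 of these genes (21.7%) held the motif, which reads the same on both strands, in at least one window, against 12.0% of the 9164 tested genes with a window. The motif was present in 6 of 34 members whose KO arrays both lay below both WT arrays (17.6%) and in 4 of 11 members whose arrays overlapped (36.4%). These counts are a description of letters in these windows and not of binding. A pair of examples follows from each of these classes, with the motif in capitals and the start after base 250. Nop2 and Nol11 did not overlap between genotypes, and their motif ends 54 and 37 bases before the start. Exosc5 and Pes1 overlapped, and the motif ends 38 bases before the start in Exosc5 and begins 3 bases after it in Pes1.
Nop2, chr6:125131633-125131932, plus strand: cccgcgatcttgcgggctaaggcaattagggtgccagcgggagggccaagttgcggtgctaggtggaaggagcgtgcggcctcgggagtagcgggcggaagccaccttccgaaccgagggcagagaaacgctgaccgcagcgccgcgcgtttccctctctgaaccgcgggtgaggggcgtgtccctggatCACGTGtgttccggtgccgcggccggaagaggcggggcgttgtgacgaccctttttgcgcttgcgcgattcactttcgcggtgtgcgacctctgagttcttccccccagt
Nol11, chr11:107189332-107189631, minus strand: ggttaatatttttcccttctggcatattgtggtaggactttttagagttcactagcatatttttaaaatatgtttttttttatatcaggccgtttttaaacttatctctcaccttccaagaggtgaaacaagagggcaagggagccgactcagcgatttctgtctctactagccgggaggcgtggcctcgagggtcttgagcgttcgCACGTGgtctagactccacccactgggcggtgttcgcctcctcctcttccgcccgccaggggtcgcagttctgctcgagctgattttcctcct
Exosc5, chr7:25658903-25659202, plus strand: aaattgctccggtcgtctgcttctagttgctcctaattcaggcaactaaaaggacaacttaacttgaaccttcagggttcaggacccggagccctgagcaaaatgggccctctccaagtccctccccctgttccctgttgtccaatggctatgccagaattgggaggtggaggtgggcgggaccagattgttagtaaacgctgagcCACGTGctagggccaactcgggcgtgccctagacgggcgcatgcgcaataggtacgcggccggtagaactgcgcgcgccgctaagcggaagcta
Pes1, chr11:3963725-3964024, plus strand: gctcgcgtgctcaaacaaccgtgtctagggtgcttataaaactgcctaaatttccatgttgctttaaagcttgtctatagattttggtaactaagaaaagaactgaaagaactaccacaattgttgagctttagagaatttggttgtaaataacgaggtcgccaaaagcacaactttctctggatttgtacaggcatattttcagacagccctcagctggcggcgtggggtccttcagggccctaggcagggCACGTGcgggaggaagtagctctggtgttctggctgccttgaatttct

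The rest of the pathway was read from lists of related genes outside the rule. Of 74 tested processing factors with other names, Bysl fell, 0 rose and 73 did not pass (1.35% called, against 2.57% of all tested genes). Bysl encodes bystin, which is needed to release the small subunit, and gave 644 and 599 on the KO arrays, against 1478 and 1190 on the WT arrays. Its log2 difference was -1.08 (limma adjusted p = 0.0352), and it did not pass without WT replicate 1 (-0.92), without WT replicate 2 (-1.23), unfiltered, without the trend or after centring on epithelial markers (-0.74). The median of these factors was -0.25 (0.09 after centring on epithelial markers), and 45 of 74 had both KO signals below both WT signals, against 27.5% of all tested genes. Genes of RNA polymerase I transcription with other names, including its remaining subunits Twistnb, Cd3eap and Znrd1, had a median of -0.04 (0.30 after centring on epithelial markers and 0.05 after centring on array medians). Of these genes 2 of 10 were lower on both KO arrays (20%, against 27.5% of all tested genes) and 0 were called. Twistnb gave 786 and 907 on the KO arrays, against 980 and 1091 on the WT arrays (-0.29, adjusted p = 0.357).

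Cofactors of the exosome and other ribonucleases were divided. Of 19 tested, 9 were lower (47.4%) and 3 higher on both KO arrays, and 0 passed. Over all tested genes 27.5% were lower and 26.2% higher on both KO arrays, and 2.57% were called. The median of the 19 was -0.18 (0.16 after centring on epithelial markers). The cytoplasmic exonuclease gene Xrn1 had the largest difference, with 238 and 248 on the KO arrays against 431 and 469 on the WT arrays (-0.85, limma adjusted p = 0.0573). The 44 cytosolic ribosomal protein genes tested, which encode the parts that the members assemble, had a median of -0.11 (0.23 after centring on epithelial markers). On both KO arrays 17 of them were lower (38.6%, against 27.5% of all tested genes) and 3 higher, and 0 were called. Rps4l, a paralogue of a small subunit protein gene, gave 482 and 628 on the KO arrays, against 1058 and 819 on the WT arrays (-0.74, adjusted p = 0.108). The median of the 76 mitochondrial ribosomal protein genes was -0.07 (0.27 and 0.01 after centring on epithelial markers and on array medians). On both KO arrays 20 of the 76 were lower (26.3%, close to the 27.5% of all tested genes) and 5 higher, and 0 were called. Mrps22 among them gave 837 and 908 on the KO arrays, against 1265 and 1105 on the WT arrays (-0.43, adjusted p = 0.178). RNA polymerase II subunits had a median of -0.05 (11 genes; 0.29 and 0.03 under those centrings) and RNA polymerase III subunits one of -0.13 (8 genes; 0.21 after centring on epithelial markers), with 0 called in either list. Polr2d gave -0.57 (adjusted p = 0.130) and Polr3d -0.41 (adjusted p = 0.288). The members' median was lower than that of each of these lists, a difference that was not tested.

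**Figure D4:**
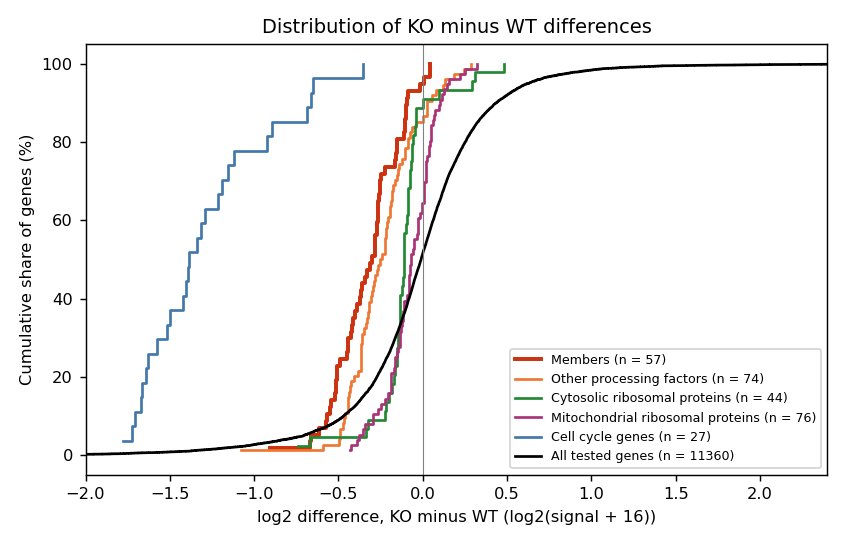
Cumulative share of genes (vertical axis, %) by log2 difference, KO minus WT on the log2(signal + 16) scale, for the 57 tested members, 4 related lists and all 11360 tested genes. In the values as deposited the members lie left of all tested genes (medians -0.30 and -0.01), close to the other processing factors (-0.25) and right of the cell cycle genes (-1.38). After centring on epithelial markers these medians are 0.035, 0.33, 0.09 and -1.05.

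Myc, a transcription factor that drives ribosome production, gave 1075 and 1883 on the KO arrays, against 2319 and 2872 on the WT arrays. Its log2 difference was -0.85 (limma adjusted p = 0.147), and it passed without KO replicate 2 (-1.25). Mycl, a relative, was at 573 and 817 on the KO arrays, against 53.2 and 199 on the WT arrays (2.52, adjusted p = 0.0567). Mycl passed with a pseudocount of 64 (2.09), without WT replicate 2 (3.34), without KO replicate 1 (2.77) and after centring on epithelial markers (2.86). Of 10 genes tested in the MYC network, 3 were lower and 2 higher on both KO arrays and 0 passed. The shares of all tested genes were 27.5% lower and 26.2% higher on both KO arrays. The list median of 0.15 was -0.04 without KO replicate 1 and -0.00069 without KO replicate 2.

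The cell cycle and general epithelial lists also had negative medians, and their part in the shift of the set was not tested. Cell cycle genes had a median of -1.38 (-1.05 after centring on epithelial markers). Of 27 tested, 14 were called lower (51.9%, against 1.36% of all tested genes) and 0 were called higher. All 27 were lower on both KO arrays, against 27.5% of all tested genes. Their summed signal was 15264 and 19644 on the KO arrays, against 33458 and 45145 on the WT arrays, the same order of arrays as in the members. The replication helicase gene Mcm6 fell, with a log2 difference of -1.71 (adjusted p = 0.0184 by limma), as did Mcm5 with -1.64 (adjusted p = 0.0236), and neither passed without WT replicate 2 (-1.57 and -1.38) or unfiltered, nor Mcm5 after centring on epithelial markers. The 14 cell cycle calls became 24 when KO replicate 2 was left out and 9 when KO replicate 1 was. They became 7 when WT replicate 1 was left out, 0 when WT replicate 2 was, 0 when unfiltered and 4 after centring on epithelial markers. The 24 general epithelial markers had a median of -0.40, which was -0.64 for KO replicate 1 but -0.06 for KO replicate 2, and a summed signal of 40192 and 62641 on the KO arrays against 57823 and 60620 on the WT arrays. Of these markers 3 were called lower and 1 higher (16.7% called, against 2.57% of all tested genes). The list was mixed, with differences from -1.78 to 1.02. On both KO arrays 12 were lower (50%, against 27.5% of all tested genes) and 5 higher (26.2% of all tested genes were). The calls were 9 lower and 1 higher when KO replicate 2 was left out, 3 and 2 when KO replicate 1 was, and 0 in either direction when either WT array was or when unfiltered. Among the called epithelial genes were Cldn8 (-1.74, adjusted p = 0.0308) and Elf5 (-1.10, adjusted p = 0.0324), which did not pass without either WT array or unfiltered, nor Elf5 without the trend or after centring on epithelial markers.

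Markers of other cell types differed as well. Of 12 tested skeletal muscle markers 5 were called higher (41.7%, against 1.21% of all tested genes), with a list median of 2.43. Summed signals were 12486 and 6962 on the KO arrays against 3560 and 1802 on the WT arrays. Among the called genes were Myh4 (3.30, limma adjusted p = 0.0138) and Tnnc2 (2.85, adjusted p = 0.0297). Neither gene passed when WT replicate 2 was left out or when no filter was set. The calls in this list were 7 of 13 tested when WT replicate 1 was left out, 2 of 14 when WT replicate 2 was, 1 of 5 when KO replicate 1 was (median 1.48), 7 of 9 when KO replicate 2 was, and 0 of 15 when unfiltered. Several of these markers thus reached the limit for testing through the arrays on which they were high. Among 13 basal and myoepithelial markers Oxtr was called lower (-0.89, limma adjusted p = 0.0425), which is 7.69% of the list against 1.36% of all tested genes. The list median of -0.26 was -0.94 for KO replicate 1 but 0.03 for KO replicate 2. Oxtr passed without KO replicate 2, but not with any other array left out, unfiltered, without the trend, as the mean of its probe sets or after epithelial centring. Medians were 0.07 for 11 adipocyte markers, 0.09 for 9 macrophage markers, 0.13 for 10 endothelial markers and 0.06 for 10 fibroblast and matrix markers, with 0 called in any of them. In these lists the largest differences were -0.76 for Lep (adjusted p = 0.600), 1.07 for Cd163 (adjusted p = 0.0507), 0.42 for Cd34 (adjusted p = 0.198) and 0.30 for Pdgfra (adjusted p = 0.239). Cd163 passed without WT replicate 1 (1.34), without KO replicate 2 (1.07), with a pseudocount of 64 and under both centrings. Of 10 lymphocyte markers 8 lay below the limit for testing, and Cd3e was at 28.1 and 353 on the KO arrays, against 192 and 404 on the WT arrays (-1.21, adjusted p = 0.514).

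**Figure D5:**
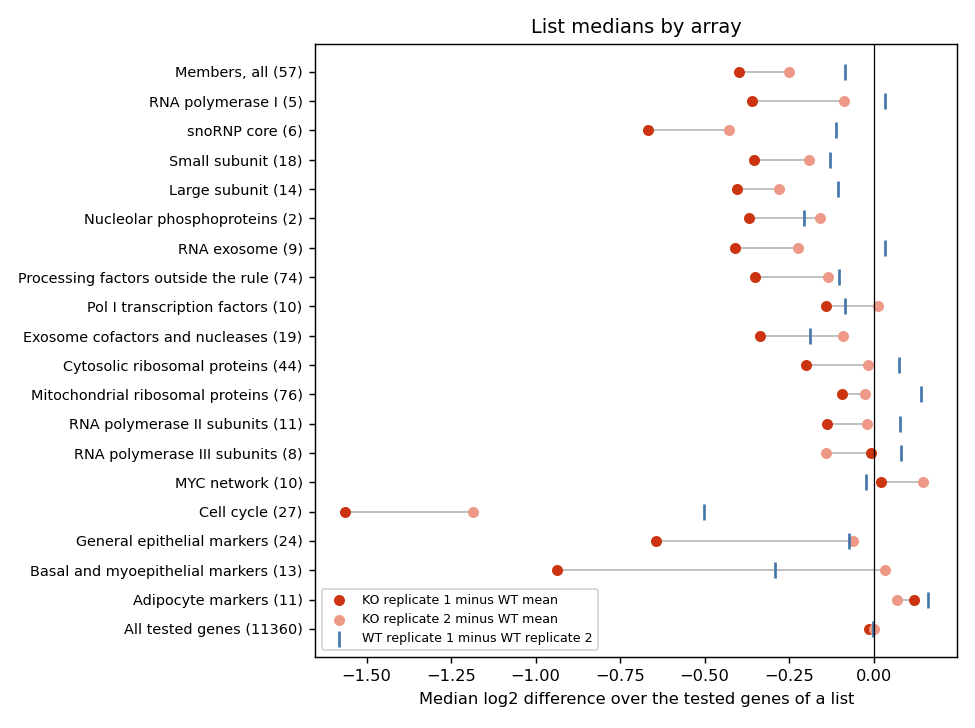
Median log2 difference (log2(signal + 16)) over the tested genes of each list, with their number in brackets, for KO replicate 1 and KO replicate 2 against the mean of the WT arrays, and for WT replicate 1 minus WT replicate 2 as a blue tick. In the values as deposited the members lie at -0.40 and -0.25 on the KO arrays with -0.08 between the WT arrays, whereas epithelial markers lie at -0.64 and -0.06. Centring on epithelial markers turns the members' median to 0.035.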

How the data were processed

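RNA of mammary tissue from 2 KO and 2 WT mice was measured on 4 Affymetrix arrays, 1 per mouse as the design text states. The deposited intensities are MAS5 signals on a linear scale, per the submitters' processing notes, with version and settings not given in the sources used here. Every array has the same mean of 500 once 2% of its probe sets are trimmed at each end, as read from the values. Symbols came from the platform annotation, 64 control probe sets were left out, and no gene was named from the 932 probe sets with several symbols.

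Here signals were transformed as log2(signal + 16). Probe sets with a mean at or above the median (7.15) were tested, 22519 in all, and the genotypes were compared in limma 3.58.1 (R 4.3.3, eBayes with trend), with Benjamini-Hochberg adjustment over all of them and a threshold of 0.05. Each fit has 2 residual degrees of freedom. The variance of each probe set was moderated towards a trend over all tested probe sets. Each SE and p-value given here therefore draws on other probe sets as well as on the gene's own replicates. The p-values reflect the spread among these 4 samples alone. A two-sided exact permutation of 2 against 2 gives at least 0.333. The script was tested on simulated data.

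The members, lists, tests and rule for named genes were chosen with earlier results of these data known. The rule names, per role group, the brightest member and those with the highest and lowest difference, all exosome subunits, members whose probe sets disagree in sign, members next to the filter, Myc, and from each outside list up to 2 called genes or, with none called, the gene with the largest difference. The other genes were chosen after their values were seen. Sets were described by counts and medians, without a test over the set.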

Additional observations from a re-analysis of the deposited data

How the results depend on the processing

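The log2 difference of the members relative to all tested genes was between -0.38 and -0.25 under the alternatives that can move it. Both centrings and the fit with no trend leave it at -0.29 by construction. Their median, -0.30 as reported, ranged from -0.40 to -0.25 with one array left out. It was -0.22 after centring on array medians, where 32 of 57 members lay lower on both KO arrays, against 19.4% of all tested genes. It was 0.035 after centring on epithelial markers, where 5 of 57 members lay lower on both KO arrays, against 5.55% of all tested genes. With one array left out, 44 to 53 members were lower on all remaining KO arrays (against 37.8% to 42.0% of all tested genes), the number of members past the limma threshold ranged from 0 to 2 (2 without KO replicate 2, Nol4l and Nop56), and the number of called genes in the pathway lists from 0 to 4. That number, 1 as reported, was 2 with a pseudocount of 64, 0 with no filter, 0 with no trend, 0 without WT replicate 1, 2 without KO replicate 1 and 4 without KO replicate 2. Calls over all tested genes numbered 292 as reported, 27 with no filter and 601 without KO replicate 2.

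After epithelial centring 26 of 57 members were below 0. Either centring moves the difference of every gene by the same amount. A sign change under it therefore marks a gene whose negative difference was smaller than that amount, and is no trait of the single gene. Among the genes named in the text, signs changed as follows. Centring on epithelial markers gave 0.055 for Exosc1, 0.070 for Exosc10, 0.075 for Exosc4, 0.24 for Exosc5, 0.055 for Ncl, 0.085 for Nol7, 0.18 for Nol9, 0.19 for Nop10, 0.093 for Npm1, 0.18 for Pes1, 0.11 for Polr1a, 0.32 for Polr1c, 0.067 for Rrp7a, 0.051 for Twistnb, 0.035 for Utp20 and 0.18 for Utp4. Quantile normalization gave -0.032 for Nop53, centring on array medians 0.067 for Polr1c, and the mean of probe sets -0.21 for Utp15. With one array left out, Cd3e ranged from -2.74 to 0.32, Exosc5 from -0.36 to 0.16, Lep from -1.95 to 0.43, Nop53 from -0.17 to 0.19, Pes1 from -0.40 to 0.075, Polr1c from -0.13 to 0.10, Polr1d from -0.087 to 0.18 and Utp15 from -0.17 to 0.26. The cause of the changes under the other settings was not tested. No paired analysis was possible because the labels number no replicates, and the numbers used here only follow the order of the samples. The lone array left by an omission is assumed to vary like the others.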
